A study of Homo sapiens with 20 samples.

Results

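The genes described here are the replication-dependent histone genes of IMR-32, a human neuroblastoma line in long-standing laboratory use. They were taken as every row of the count table whose symbol is that of a numbered H1 gene from H1-1 to H1-6 or starts with H2AC, H2BC, H3C or H4C followed by a number. Of 58787 rows, 69 matched, 9 of them at 0 in all 20 libraries, and 44 passed the filter on low counts and were tested among 13729 genes. These 44 were 4 H1, 10 H2A, 15 H2B, 7 H3 and 8 H4 genes.

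The study treated the cells for 24 h in 5 groups of 4 libraries each, all from the same line with the genotype label WT and the same batch label. The groups were the combination of prexasertib and Dyngo-4a, prexasertib alone at 2 nM, Dyngo-4a at 2.26 µM (the high dose), Dyngo-4a at 1 µM (the low dose) and the vehicle DMSO. Prexasertib is a CHK1 inhibitor, and Dyngo-4a, known as a dynamin inhibitor, is the other agent in a study titled for CHK1 and MUS81. The labels do not say at which doses the agents were combined. Each library was a QuantSeq 3′ mRNA library, which reads the ends of polyadenylated RNA. The labels number the replicates but do not say whether each was its own culture, so the p-values measure the spread between these libraries.

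Replication-dependent histone genes supply the histones that package newly copied DNA, and they are transcribed mainly in S phase from gene clusters gathered around the coactivator NPAT. Their main mRNAs end after a conserved stem-loop that is bound by SLBP, and carry no poly(A) tail. Some of these genes also give longer polyadenylated transcripts that run past the stem-loop. A 3′ mRNA library therefore reads polyadenylated or A-rich histone transcripts, and the amount of stem-loop-ended histone mRNA was not measured here.

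The stem-loop is shown first because it is the usual end of these mRNAs and lies inside the annotated transcript of 23 of the 44 genes (GENCODE 29, GRCh38). It was present in 17 of 19882 other protein-coding genes, or 0.0855%. There were 6 distinct sequences among the 23 genes; the stem is in capitals and the loop in lower case.
H2BC8, H2BC9 and 11 other genes: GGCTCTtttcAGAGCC
H4C5, H4C2, H4C8 and H4C11: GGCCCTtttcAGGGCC
H2BC5, H2BC4 and H2BC7: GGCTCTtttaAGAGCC
H4C9: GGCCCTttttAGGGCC
H3C6: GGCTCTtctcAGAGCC
H2AC11: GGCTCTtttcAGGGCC
In H2BC8 the stem-loop is at chr6:26216218-26216233 on the minus strand, and the annotated transcript runs 1059 bases further. In H2BC9 it is at chr6:26252055-26252070 on the plus strand with 1640 bases after it, and in H4C5 at chr6:26205001-26205016 on the plus strand with 1022 bases after it. H2BC5, at chr6:26158587-26158602 on the plus strand, has 39 bases after it in the transcript that holds it.

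By annotation, 19 of the 44 genes had a transcript ending more than 200 bases past the first stop codon (called extended here) and 25 did not (called short). This is a distance on the genome, with introns included, and the transcript that ends there may not be the one with the stem-loop. For H2BC5 it was 12799 bases, against 39 bases after the stem-loop. The stem-loop was inside the transcript of 18 extended genes and of 5 short ones. For many short genes, such as H1-2, H2AC14 and H2BC12, the annotated transcript ends 0 bases past the stop codon. Such a transcript can hold no stem-loop after it, so the class and the missing stem-loops depend on how far the annotation reaches. Whether the RNA of these genes runs further was not tested. The short class held all 4 H1 genes and H4C3, and the extended class 11 of the 15 H2B genes.

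The promoters of H2BC8 and H4C5, with the smallest p in the combination, and of H2BC9, with the smallest p in the high dose, are shown with short motifs in capitals (RefSeq, GRCh38.p14; the 250 bases before the annotated start). The motifs searched on both strands were the octamer ATTTGCAT, the CCAAT box CCAAT, the TATA box TATAAA and GGTCCG, the core of an element known from H4 promoters. H2BC8, which was high with the combination, lies at chr6:26216689-26216938 on the minus strand. H2BC9, which was low with the high dose, lies at chr6:26251364-26251613 on the plus strand, and H4C5, an H4 gene high with the combination, at chr6:26204360-26204609 on the plus strand.
H2BC8: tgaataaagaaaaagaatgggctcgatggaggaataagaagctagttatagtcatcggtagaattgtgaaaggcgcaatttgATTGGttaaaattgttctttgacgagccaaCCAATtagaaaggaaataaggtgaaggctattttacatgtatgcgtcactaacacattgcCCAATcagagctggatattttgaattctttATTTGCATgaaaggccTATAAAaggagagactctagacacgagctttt
H2BC9: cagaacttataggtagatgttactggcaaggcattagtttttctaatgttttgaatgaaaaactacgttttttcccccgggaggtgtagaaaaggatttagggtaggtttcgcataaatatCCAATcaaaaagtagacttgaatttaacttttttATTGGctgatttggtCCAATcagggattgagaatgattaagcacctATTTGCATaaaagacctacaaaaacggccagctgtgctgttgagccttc
H4C5: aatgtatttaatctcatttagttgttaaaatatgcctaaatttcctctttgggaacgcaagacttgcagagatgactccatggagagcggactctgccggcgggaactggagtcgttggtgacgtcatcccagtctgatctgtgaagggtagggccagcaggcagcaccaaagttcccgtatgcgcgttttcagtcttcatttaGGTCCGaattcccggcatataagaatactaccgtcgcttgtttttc
Among the 40 tested genes with an entry (all but H3C12, H4C3, H3C11 and H2AC12), windows of 300 bases that add 50 bases after the start were counted. The octamer was in 7 of 9 H2A and 11 of 15 H2B windows and in none of the 4 H1, 5 H3 and 7 H4 windows, against 1.77% of all 35116 promoters. The CCAAT box was in 4 of 4 H1, 9 of 9 H2A, 15 of 15 H2B, 5 of 5 H3 and 2 of 7 H4 windows, against 34.6%. GGTCCG was in 7 of 7 H4 windows, 1 of 9 H2A, 1 of 15 H2B, 1 of 5 H3 and 0 of 4 H1 windows, against 11.3%. TATAAA was in 29 of the 40, against 11.5%. A match describes letters and is not evidence of a site, and no 2 of these motifs overlap in the sequences shown.

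Library totals ran from 3960885 to 6537843 counts, of which the 69 matching rows made up 0.234% to 0.482%. H4C3 alone held 73.7% to 90.2% of the counts of the 44 tested genes. CPM is the usual count relative to library size, given for genes with TMM factors. A count of 0 allows up to 3 counts, which is 0.459 to 0.757 CPM without TMM factors, depending on the library. This limit covers counting error only. Among neuroblast markers, HAND2 was at 486 to 865 CPM, GATA3 at 955 to 1290 and TH at 0 to 3.26. Summed fibroblast markers reached 59.7 CPM, with the high dose at 19.0 to 33.5 and DMSO at 39.6 to 47.4; Schwann markers reached 9.73 CPM with SOX10 at 0, immune markers 3.09 CPM with CD3E at 0, endothelial markers 1.97 CPM and epithelial markers 19.1 CPM with KRT18 at 0. The part of these markers in the histone results was not tested.

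The filter asked for 1.88 CPM in at least 4 libraries, so the members were selected on their level in these libraries. Of the 44 genes, 32 passed without the 4 combination libraries, and 12 passed only because of them: H2AC4, H2BC11, H2BC13, H2BC17, H2BC18, H2BC26, H3C2, H3C6, H3C11, H3C13, H4C2 and H4C9. Just inside the threshold, H2AC4 and H4C9 were above it in 4 libraries with 134 counts each over all libraries. Just outside, H2AC15 and H4C12 were above it in 3 libraries, with 86 and 77 counts.

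With the combination, 24 of the 44 genes rose relative to DMSO and none fell (edgeR, adjusted p under 0.05). Of all tested genes, 3.47% rose and 2.83% fell, 6.3% in all. Among the 32 genes that passed without the combination libraries, 16 rose and none fell, with a median log2 fold change of 1.00, against 0 over all genes tested. The 12 that passed through the combination had 8 that rose, and these had to be higher there to pass. The genes that rose were 11 of 15 H2B, 5 of 10 H2A, 5 of 8 H4, 3 of 7 H3 and 0 of 4 H1 genes. Without the genes that passed through the combination libraries they were 7 of 10 H2B, 5 of 9 H2A, 3 of 6 H4, 1 of 3 H3 and 0 of 4 H1 genes.

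The high dose of Dyngo-4a gave another picture: 3 of the 44 genes rose (H2AC6, H2BC5 and H2AC25) and 13 fell. In that comparison 12.5% of all tested genes rose and 12.7% fell, 25.2% in all, so a gene was called far more often in general than with the combination. Among the 32 genes, 3 rose and 11 fell, with a median log2 fold change of -0.45. Fewer cells in S phase and less histone RNA per cell cannot be told apart in these bulk libraries. The share of members called against DMSO uses the same DMSO libraries in both comparisons.

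**Figure D1:**
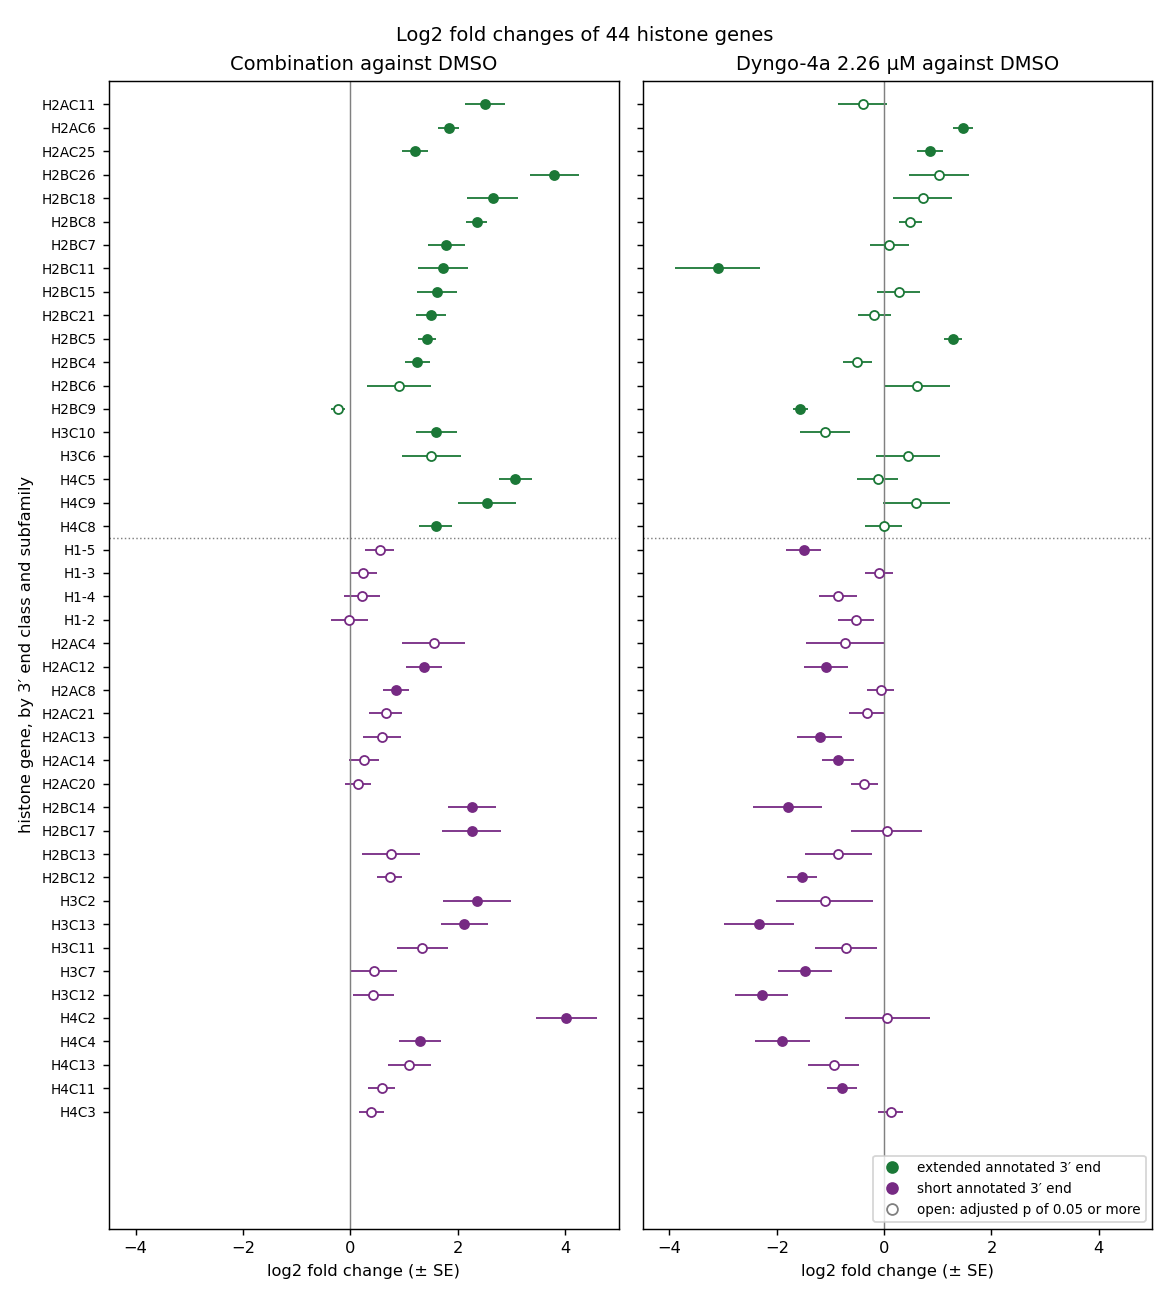
Log2 fold change with its SE for each of the 44 tested histone genes, for the combination (left) and Dyngo-4a at 2.26 µM (right) against DMSO; filled points have an adjusted p under 0.05 and the dotted line parts genes with extended and short annotated 3′ ends. With the combination 24 filled points lie right of 0 and none left, and with the high dose 3 lie right and 13 left.

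The linker histone genes, whose products bind the DNA between nucleosomes, were not called with the combination. H1-2 had 410, 244, 236 and 201 CPM with the combination, 264, 217, 122 and 167 with the high dose, and 314, 368, 256 and 166 in DMSO. The groups overlapped throughout, and its log2 fold change was -0.02 ± 0.34 (SE) with the combination, adjusted p of 0.987 in edgeR, and -0.52 ± 0.34 with the high dose, adjusted p of 0.298. H1-4 had 67.5, 43.1, 43.1 and 31.2 CPM with the combination, 36.7, 22.5, 11.8 and 16.4 with the high dose, and 42.6, 54.7, 37.1 and 25.6 in DMSO. Its high-dose libraries were mostly below those of DMSO but overlapped with them, at a log2 fold change of -0.86 ± 0.35 and an edgeR adjusted p of 0.0883. H1-3 had 15.8, 20.3, 24.7 and 25.0 CPM with the combination, 16.4, 17.5, 8.89 and 25.1 with the high dose, and 12.8, 23.3, 24.0 and 13.4 in DMSO, with no order among the groups.

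In the model of the 5 groups, H1-5 was the linker gene called lower with the high dose. It had 5.72, 6.66, 2.90 and 5.72 CPM with the high dose, against 15.4, 18.3, 20.4 and 6.40 in DMSO. All high-dose libraries were below 3 of the DMSO libraries, and the groups overlapped only at DMSO replicate 4. The log2 fold change was -1.5 ± 0.32 with an edgeR adjusted p of 0.000884. With the combination H1-5 had 32.2, 19.1, 18.4 and 18.1 CPM, at a log2 fold change of 0.55 ± 0.27 and an adjusted p of 0.267 relative to DMSO. Relative to the low dose, where it had 12.1, 9.78, 5.88 and 6.54 CPM, the combination was higher with no overlap, at 1.35 ± 0.29 and an adjusted p of 0.00487.

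Among the H2A genes, which encode 1 of the 4 core histones, H2AC6 rose with both drug settings. It had 32.4, 25.0, 26.8 and 25.2 CPM with the combination and 11.1, 14.9, 10.7 and 16.1 with prexasertib. In order of dose it had 5.90, 9.28, 6.65 and 8.97 CPM in DMSO, 9.71, 14.4, 11.8 and 11.8 with the low dose, and 20.9, 19.3, 18.0 and 26.9 with the high dose. Neither the combination nor the high dose overlapped with DMSO, and the low dose lay between DMSO and the high dose. The log2 fold change relative to DMSO was 1.83 ± 0.19 with the combination (edgeR adjusted p of 3.75e-09) and 1.47 ± 0.19 with the high dose (2.6e-07). The high dose also exceeded the low dose, at 0.83 ± 0.18 and an adjusted p of 0.000868.

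H2AC25 was the other H2A gene that rose in both. It had 13.8, 18.4, 16.8 and 16.9 CPM with the combination, 10.6, 12.8, 11.8 and 16.2 with the high dose, and 5.71, 8.02, 5.84 and 8.97 in DMSO. No library of either group was as low as the highest in DMSO, and the log2 fold changes were 1.20 ± 0.24 and 0.85 ± 0.24 (edgeR adjusted p of 0.000783 for the combination and 0.00807 for the high dose). H2AC11 had 14.0, 13.6, 11.8 and 11.2 CPM with the combination, against 1.90, 2.26, 2.42 and 2.24 in DMSO. The groups lay far apart, at a log2 fold change of 2.51 ± 0.37 and an edgeR adjusted p of 1.1e-05, whereas with the high dose its log2 fold change was -0.40 and not called.

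The most counted H2A genes were not called higher. H2AC14 had 138, 57.9, 80.6 and 82.9 CPM with the combination, 54.6, 39.4, 26.5 and 45.6 with the high dose, and 70.4, 101, 77.6 and 54.0 in DMSO. The combination overlapped with DMSO, and its log2 fold change was 0.25. The high dose overlapped with DMSO at 1 library, with a log2 fold change of -0.86 ± 0.29 and an edgeR adjusted p of 0.0418. This call was lost without a low-count filter. It was also lost without DMSO replicate 1, 2 or 3 or high-dose replicate 2, 3 or 4 (adjusted p up to 0.12). Of the 50-base stretches of H2AC14, 83.7% also occur in other genes, mostly H2AC13, so reads of these copies may be split or shared. H2AC20 had 67.0, 56.3, 44.7 and 42.6 CPM with the combination, 49.1, 35.8, 21.0 and 41.7 with the high dose, and 46.1, 54.9, 56.6 and 34.6 in DMSO, overlapping in each case and called in neither.

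H2AC12 moved in opposite directions with the 2 settings. It had 10.4, 6.03, 8.62 and 5.08 CPM with the combination, 1.97, 1.44, 0.544 and 1.48 with the high dose, and 2.85, 2.76, 2.62 and 3.20 in DMSO. None of the groups overlapped, and the log2 fold changes were 1.37 ± 0.34 (edgeR adjusted p of 0.00841) with the combination and -1.08 ± 0.41 (adjusted p of 0.0482) with the high dose. The high-dose call was lost in 12 of 16 other settings, and the combination call without combination replicate 1, at an adjusted p of 0.0557. H2AC8 rose with the combination, at 16.2, 16, 13.4 and 12.9 CPM against 11.6, 9.28, 7.86 and 4.16 in DMSO, with a log2 fold change of 0.85, a call lost without DMSO replicate 3 or 4 or combination replicate 1 or 2 (adjusted p up to 0.137). H2AC13 fell with the high dose, at 1.58, 0.360, 1.45 and 2.77 CPM against 4.95, 2.76, 2.22 and 4.16 in DMSO, with a log2 fold change of -1.20 and groups that overlapped slightly. That call was lost without DMSO replicate 1 or 4 or high-dose replicate 2 or 3 (adjusted p up to 0.121). H2AC4 and H2AC21 were called relative to DMSO in neither comparison.

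Of the H2B genes, whose products pair with H2A in the nucleosome, 11 of 15 rose with the combination, or 7 of the 10 that passed without its libraries. H2BC8 had 26.6, 28.9, 35.0 and 22.7 CPM with the combination, 8.19, 9.87, 8.72 and 7.36 with prexasertib, 5.18, 3.63, 5.23 and 6.54 with the low dose, and 4.19, 5.77, 6.05 and 6.08 in DMSO. Every combination library was more than any library of the other groups, and prexasertib lay slightly above DMSO. Relative to DMSO the log2 fold change was 2.35 ± 0.20, a 5.10-fold higher mean, with an edgeR adjusted p of 4.43e-11. With the high dose H2BC8 had 8.09, 6.12, 7.80 and 9.04 CPM, all slightly above DMSO, at a log2 fold change of 0.49 and an adjusted p of 0.1.

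H2BC5 rose both with the combination and with the high dose. It had 33.3, 32.2, 32.9 and 28.6 CPM with the combination and 14.9, 15.3, 14.9 and 13.6 with prexasertib. In order of dose it had 13.1, 15.8, 10.7 and 8.32 CPM in DMSO, 10.6, 12.8, 10.9 and 15.1 with the low dose, and 23.9, 29.9, 26.5 and 34.3 with the high dose. The low dose and prexasertib overlapped with DMSO, while the combination and the high dose were above every DMSO library. Their log2 fold changes were 1.43 ± 0.17 and 1.28 ± 0.17, with edgeR adjusted p of 6.27e-08 for the combination and 2.69e-07 for the high dose.

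H2BC9 fell with the high dose. It had 33.7, 31.2, 31.5 and 39.9 CPM with the combination and 30.5, 32.0, 35.5 and 41.8 with prexasertib. In order of dose it had 38.6, 33.6, 43.3 and 44.7 CPM in DMSO, 33.2, 34.1, 32.5 and 29.6 with the low dose, and 11.2, 13.9, 14.1 and 15.1 with the high dose. Only the high dose stood apart, with every library below all others. The log2 fold change was -1.56 ± 0.14 relative to DMSO (edgeR adjusted p of 9.86e-11) and -1.25 ± 0.14 relative to the low dose (3.27e-08), while the combination gave -0.24 ± 0.13, adjusted p of 0.313. Both genes have an extended annotated end and a stem-loop in an annotated transcript.

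H2BC12 had 15.3, 13.4, 9.76 and 11.8 CPM with the combination, 3.55, 1.98, 2.72 and 2.21 with the high dose, and 9.52, 4.26, 8.26 and 7.84 in DMSO. Neither group overlapped with DMSO. It fell with the high dose at -1.53 ± 0.28 on the log2 scale (edgeR adjusted p of 6.33e-05), and with the combination its log2 fold change was 0.73 with an adjusted p of 0.0504, which passed 0.05 in 6 of 16 other settings. Other genes share 74.1% of its 50-base stretches. H2BC26 had 13.1, 9.30, 7.26 and 6.71 CPM with the combination, against 0.190, 0.752, 0.403 and 1.12 in DMSO, from 182 and 13 counts. That was a log2 fold change of 3.80 ± 0.46 in a gene that passed the filter through the combination.

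Of the other H2B genes, H2BC18, H2BC14, H2BC17, H2BC7, H2BC11, H2BC15, H2BC21 and H2BC4 rose with the combination. Their log2 fold changes were 2.65, 2.27, 2.26, 1.79, 1.73, 1.61, 1.5 and 1.25 in that order. Among them H2BC18, H2BC17 and H2BC11 passed the filter only through the combination libraries. H2BC21 had 17.3, 11.9, 9.53 and 11.4 CPM with the combination, against 3.43, 5.01, 4.23 and 4.96 in DMSO, with no overlap. With the high dose H2BC14 fell by 1.80 on the log2 scale, and H2BC11 had 3 counts in all, against 28 in DMSO. That is a ratio of 0.102 with a 95% exact interval of 0.0198 to 0.329 for counting error only, and an edgeR adjusted p of 0.00304. The high-dose call of H2BC14 was lost with limma-voom, and without DMSO replicate 1, 2 or 3 or high-dose replicate 1, 3 or 4 (adjusted p up to 0.12). The combination call of H2BC11 was lost without DMSO replicate 1 or combination replicate 1 or 2 (up to 0.0779). H2BC6 and H2BC13 were called in neither comparison.

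**Figure D2:**
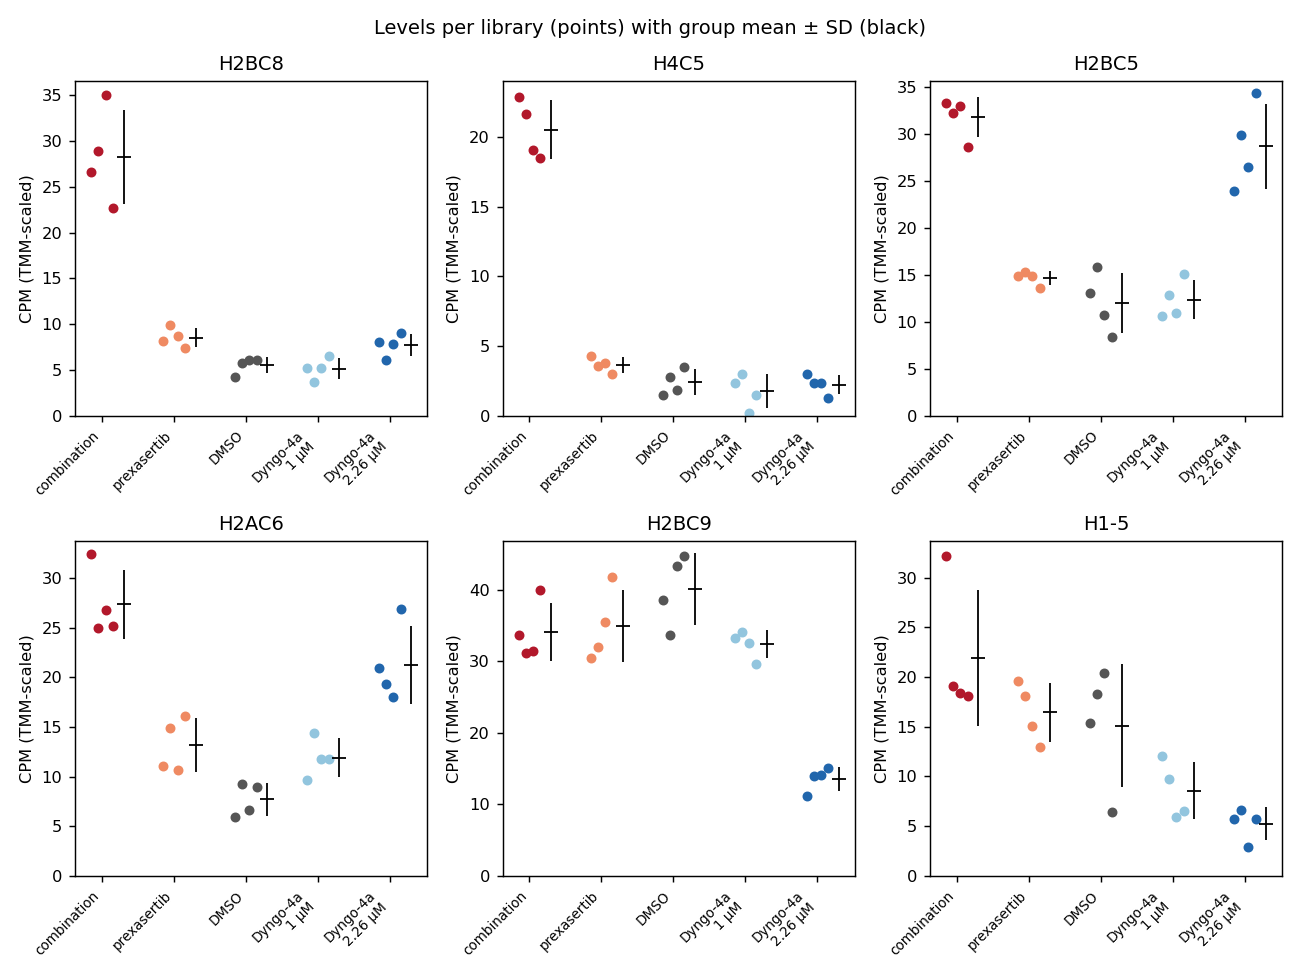
TMM-scaled CPM of 6 histone genes in each of the 20 libraries (coloured points), with the group mean and SD in black, for the combination, prexasertib, DMSO and the 2 doses of Dyngo-4a. H2BC8 and H4C5 are high in the combination group, H2BC5 and H2AC6 are high in the combination and at 2.26 µM, and H2BC9 is low at 2.26 µM, where its 4 libraries lie between 11.2 and 15.1 CPM.

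The H3 genes, which encode the core histone with the most studied tail modifications, had low counts here; 3 of 7 rose with the combination and 3 of 7 fell with the high dose. Their summed CPM was 32.0, 32.7, 30.4 and 34.6 with the combination, 3.35, 4.14, 8.16 and 6.09 with the high dose, and 10.8, 15.3, 14.9 and 13.8 in DMSO. Neither group overlapped with DMSO, but 4 of the 7 genes had to be high with the combination to pass. Over the other 3 the sum was 17.0 ± 2.11 CPM with the combination, 2.98 ± 1.99 with the high dose and 9.46 ± 0.53 in DMSO, and no test was made of it. H3C13, H3C10 and H3C2 rose with the combination at log2 fold changes of 2.12, 1.60 and 2.36. H3C12 fell with the high dose, at 0.592, 0.360, 2.00 and 0.185 CPM against 4.76, 3.76, 3.83 and 3.36 in DMSO. That was -2.28 ± 0.49 on the log2 scale with an edgeR adjusted p of 0.000645 and no overlap; H3C12 overlaps H2AC17, and 40.9% of its 50-base stretches occur elsewhere. H3C13 and H3C7 also fell with the high dose, at -2.33 and -1.48, and 80.4% of the stretches of H3C13 occur elsewhere. The H3C7 call was lost with limma-voom, and without DMSO replicate 2 or 4 or high-dose replicate 1, 2 or 4 (adjusted p up to 0.143). The combination call of H3C2 was lost without DMSO replicate 1 or 2 or combination replicate 4 (up to 0.0764). H3C6 and H3C11 were called in neither comparison.

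Among the H4 genes, H4C5 had 22.9, 21.7, 19.1 and 18.5 CPM with the combination, 4.30, 3.54, 3.76 and 2.98 with prexasertib, 2.37, 3, 0.218 and 1.45 with the low dose, and 1.52, 2.76, 1.81 and 3.52 in DMSO. The combination libraries lay far above all others, and the high dose, at 2.96, 2.34, 2.36 and 1.29 CPM, overlapped with DMSO, with 1.29 below every DMSO library. The log2 fold change with the combination was 3.07 ± 0.31, 8.39-fold, with an edgeR adjusted p of 2.02e-09. None of its 50-base stretches occurs in another gene.

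H4C3 was the most counted histone gene and was called in none of the comparisons. It had 3400, 2320, 3230 and 4220 CPM with the combination and 2870, 3220, 3160 and 3630 with prexasertib. In order of dose it had 2020, 2620, 2830 and 2550 CPM in DMSO, 1800, 2480, 2500 and 3320 with the low dose, and 2510, 2200, 1960 and 4240 with the high dose. Prexasertib was slightly above DMSO without overlap, the rest overlapped, and the log2 fold change with the combination was 0.39 with a 95% interval of -0.10 to 0.89 (edgeR adjusted p of 0.387). Its annotated transcript ends 51 bases past the stop codon, holds no stem-loop and has A at 18 of its last 24 bases, so whether its counts come from a poly(A) tail or from this A-rich end was not tested.

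H4C2 had 14.4, 8.79, 13.8 and 8.34 CPM with the combination, against 0.381, 0.501, 0.202 and 1.44 in DMSO, a log2 fold change of 4.02 ± 0.57 from 223 and 14 counts. H4C9, H4C8 and H4C4 rose with the combination at 2.55, 1.59 and 1.30. Of these genes, H4C2 and H4C9 passed the filter only through the combination libraries. With the high dose H4C4 fell, at 0.986, 0, 0.725 and 1.11 CPM against 3.24, 2.76, 1.41 and 3.20 in DMSO. The groups did not overlap, at -1.90 ± 0.51 and an edgeR adjusted p of 0.00494. H4C11 had 10.7, 9.13, 14.8 and 18.3 CPM with the combination, 3.16, 6.30, 6.89 and 4.06 with the high dose, and 5.14, 9.53, 10.9 and 9.77 in DMSO. The high dose overlapped with DMSO at 1 DMSO library and was called lower at -0.78, adjusted p of 0.0363; H4C12 and other genes share 81.2% of its 50-base stretches. The H4C11 call was lost with limma-voom, and without DMSO replicate 2, 3 or 4 or high-dose replicate 1 or 4 (up to 0.126). The combination call of H4C4 was lost without any 1 of 7 libraries, all but combination replicate 3 (up to 0.13). H4C13 was called relative to DMSO in neither comparison.

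**Figure D3:**
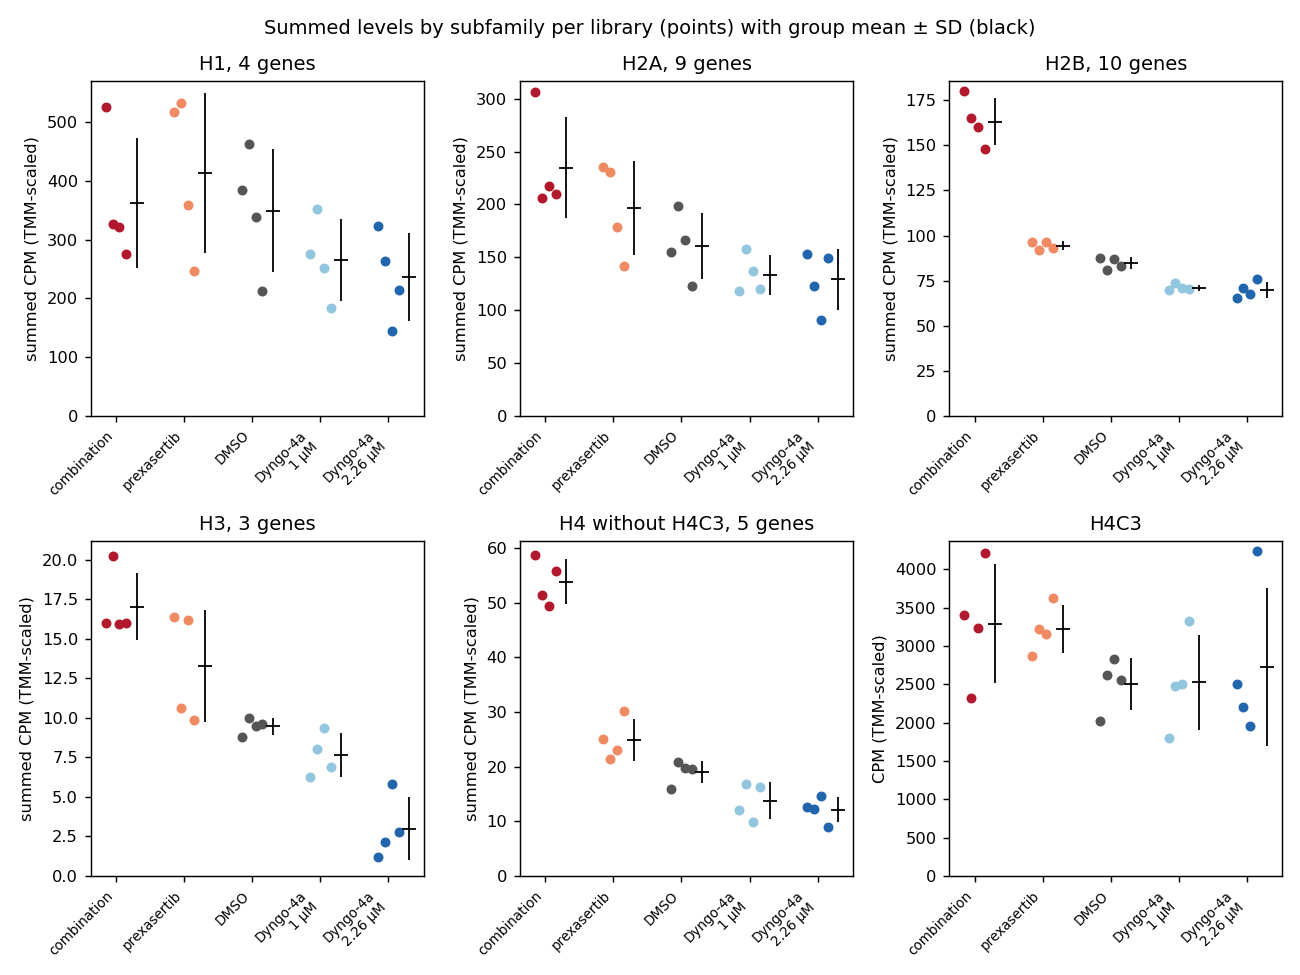
Summed TMM-scaled CPM of each histone subfamily, over genes that passed the filter without the combination libraries, and of H4C3 alone, in each library (coloured points) with the group mean and SD in black. The H2B sum and the H4 sum without H4C3 of the combination lie above every other library, while the H1 sum overlaps between groups. H4C3 also overlaps between groups, except that prexasertib lies slightly above DMSO.

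As sums over genes that passed without the combination libraries, 10 H2B genes had 163 ± 13.3 CPM with the combination, 69.7 ± 4.54 with the high dose and 84.6 ± 3.24 in DMSO (mean ± SD, n = 4). The 5 H4 genes other than H4C3 had 53.9 ± 4.21 CPM with the combination, 12.2 ± 2.33 with the high dose and 19.0 ± 2.10 in DMSO. The 4 H1 genes had 362 ± 111 CPM with the combination, 236 ± 75.5 with the high dose and 350 ± 106 in DMSO, differences within the SD of the libraries for the combination. The 9 H2A genes had 235 ± 47.6 CPM with the combination, 129 ± 28.6 with the high dose and 161 ± 30.6 in DMSO.

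The genes with an extended annotated end carried most of the higher calls. With the combination 16 of 19 extended and 8 of 25 short genes rose, and with the high dose 3 extended genes rose and 2 fell, while 0 short genes rose and 11 fell. The 5 of 19 extended genes called with the high dose are near the 25.2% of all genes, and 6.3% of all genes were called with the combination. Among the 32 genes that passed without the combination, the counts with the combination were 12 of 14 extended and 4 of 18 short genes. The summed CPM of those 14 extended genes was 238 ± 17.6 with the combination, 109 ± 8.77 with the high dose and 101 ± 1.65 in DMSO. For the 17 such short genes other than H4C3 it was 593 ± 157 with the combination, 341 ± 96.4 with the high dose and 523 ± 134 in DMSO. Single genes weigh heavily in these sums. In the same order, H1-2 alone had means of 273, 192 and 276 CPM in the short sum. H2BC9 had 34.1, 13.6 and 40.1 CPM in the extended sum. The difference between the classes was not tested, and the classes are those of the annotation, which for many short genes stops at the stop codon.

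By position, the tested genes fell into 4 blocks (GRCh38). The first block of chromosome 6, at chr6:26026815-26285638, held 20 genes, of which 11 rose with the combination, where 3.47% of all genes rose. Of these 20, 2 rose and 3 fell with the high dose, a share no larger than the 25.2% of all genes. The second, at chr6:27125897-27893843, held 17, of which 8 rose with the combination, and 0 rose and 9 fell with the high dose. On chromosome 1, the block at chr1:149782689-149887916 held 5 genes, of which 3 rose with the combination and 1 fell with the high dose, and H2AC25 and H2BC26 at chr1:228456979-228460470 both rose with the combination. Among H2A and H2B genes, 11 of 18 with the octamer and 4 of 6 without it rose with the combination, and these counts got no test. All counts with the combination by block or octamer include genes that passed the filter only through its libraries. In the first block of chromosome 6 these were H2AC4, H3C2, H3C6 and H4C2. In the second they were H2BC11, H2BC13, H2BC17, H3C11 and H4C9, and on chromosome 1 H2BC18, H3C13 and H2BC26.

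Many H2A and H2B genes stand head to head and share the DNA between their starts. There were 11 such pairs, and in 8 of them both genes were tested, with 219 to 331 bases between the annotated starts. With the combination both partners rose in 4 pairs, 1 partner in 3 pairs and neither in 1, where 3.47% of all genes rose. Of the paired genes, H2BC26, H2BC11 and H2BC13 passed the filter only through the combination libraries, so these counts partly rest on that selection. H2BC8 and H2AC8 had log2 fold changes of 2.35 and 0.85. H2BC26 and H2AC25 had 3.80 and 1.20, and H2BC14 and H2AC14 had 2.27 and 0.25. With the high dose H2AC6 rose at 1.47 while its partner H2BC4 was at -0.50, and H2BC11 was at -3.10 while H2AC11 was at -0.40. Differences between partners were not tested.

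**Figure D4:**
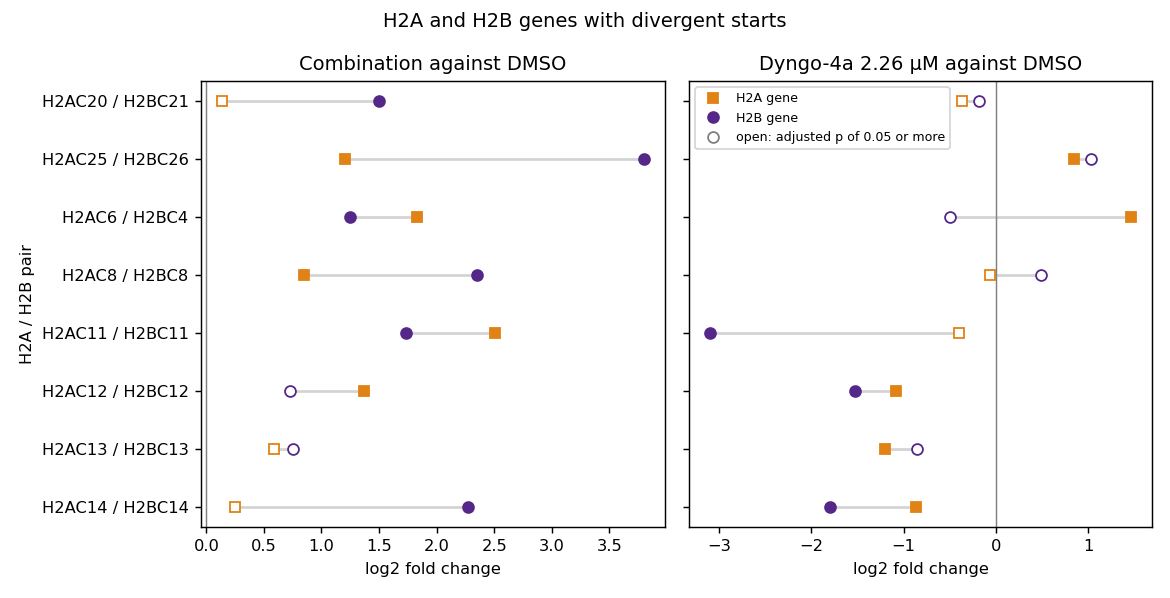
Log2 fold changes of the H2A gene (square) and the H2B gene (circle) in each of 8 head-to-head pairs, for the combination (left) and Dyngo-4a at 2.26 µM (right) against DMSO; filled symbols have an adjusted p under 0.05. With the combination the H2B gene lies right of its H2A partner in 5 of 8 pairs, and with the high dose in 4 of 8. H2BC26, H2BC11 and H2BC13 passed the filter only through the combination libraries.

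Neither prexasertib at 2 nM, its only dose, nor Dyngo-4a at 1 µM gave a called histone gene. With prexasertib at 2 nM no histone gene and 0% of all genes were called by edgeR, and DESeq2 and limma-voom called no histone gene either; 9 of the 44 had an unadjusted p under 0.05, against 3.77% of all genes, and 38 of 44 had a positive log2 fold change, against 49.7%. H2AC6 was first among them at 0.79 ± 0.20, with an adjusted p of 0.385. With the replicate number as a block, since same-numbered libraries deviated together here, H2AC6 alone was called, at an adjusted p of 0.0444, against 0.168% of all genes. H2AC12 was at 7.57, 5.59, 3.57 and 3.76 CPM with prexasertib, above each DMSO library, at a log2 fold change of 0.82 and an adjusted p of 1. H4C11 was at 13.7, 10.4, 11.9 and 18.2 CPM with prexasertib, mostly above DMSO, at 0.63 with an adjusted p of 1.

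With Dyngo-4a at 1 µM no histone gene was called by edgeR, DESeq2 or limma-voom, against 0.182% of all genes higher and 0.0801% lower (0.262% either way), and 4 of 44 had an unadjusted p under 0.05, near the 7.57% of all genes. Those 4 were H2AC6 at 0.64, H2BC9 at -0.31, H1-5 at -0.79 and H2BC12 at -0.53. With the replicate block H1-5 was called lower, at an adjusted p of 0.0415, against 1.89% of all genes called. The high dose relative to the low dose gave 2 higher (H2BC5 and H2AC6) and 5 lower genes (H2BC9, H2BC11, H2BC12, H3C10 and H3C12), against 10.1% of all genes higher and 10.1% lower (20.2% either way), so members were not called more often than other genes. With the block it gave 4 higher and 8 lower, 27.3% of the members, near the share of all genes, where 3980 of 13729 were called.

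Relative to its single agents, the combination was higher again. Against prexasertib 15 of 44 genes rose and none fell, with 2.40% of all genes higher and 1.04% lower (3.44% either way), and 10 of those 15 were among the 32 genes. With the replicate block, where the numbers also pair the libraries, 25 rose, against 10.0% of all genes called either way. H2BC26, H4C2, H4C5, H2AC11 and H3C13 had log2 fold changes of 3.41, 3.20, 2.50, 2.23 and 2.00. Then came H4C9 at 1.97, H4C4 at 1.77, H2BC8 at 1.73, H2BC21 at 1.67, H2BC18 at 1.54, H4C13 at 1.48, H2BC5 at 1.11, H4C8 at 1.10, H2AC6 at 1.04 and H2AC25 at 0.95. Against the low dose 31 of 44 rose and none fell, with 2.7% of all genes higher and 1.14% lower (3.85% either way), and 21 of the 31 were among the 32.

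Whether the combination exceeded the sum of both single agents on the log2 scale was tested with an interaction term. It assumes that the combination held the low dose and 2 nM, which the labels do not state. It was called higher for 4 histone genes and lower for none, against 0.270% of all genes higher and 0.0146% lower. H2BC8 had 1.84 ± 0.30 (edgeR adjusted p of 0.00128), H4C5 2.90 ± 0.49 (0.00128), H2BC21 1.97 ± 0.42 (0.0162) and H2BC5 1.04 ± 0.24 (0.041). All 4 have an extended annotated end. H2BC5 lost the call in 14 of 24 other settings, and H2BC21 without low-dose replicate 4, prexasertib replicate 4 or combination replicate 1, at an adjusted p of up to 0.0717.

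Genes that make and handle histone mRNA were not called higher with the combination. Of 22 genes for histone gene transcription and 3′ processing, 0 rose and 5 fell with the combination, and 2 rose and 10 fell with the high dose, where 6.3% and 25.2% of all genes were called, with median log2 fold changes of -0.19 and -0.20 against 0 over all genes in both comparisons. SLBP, which binds the stem-loop, had a mean of 39.0 CPM with the combination, 35.8 with the high dose and 52.0 in DMSO, at log2 fold changes of -0.41 ± 0.12 (edgeR adjusted p of 0.0237) and -0.54 ± 0.12 (0.000576). The cyclin E genes CCNE2 and CCNE1 and their kinase CDK2, which activate NPAT, fell with the combination at -0.70, -0.69 and -0.42 and with the high dose at -0.85, -0.75 and -0.64.

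NPAT itself had 33.7 CPM with the combination, 33.3 with the high dose and 42.5 in DMSO, called lower with the high dose only (-0.34, adjusted p of 0.0341, and 0.0978 with the combination). LSM11, part of the U7 particle that cuts histone pre-mRNA, rose with the high dose at 0.82 ± 0.13 and was at 0.18 with the combination. SRRT, a partner of the cap-binding complex, fell by 0.75 on the log2 scale with the high dose. CASP8AP2, a component of histone locus bodies, was called in neither, at -0.30 with the combination and 0.20 with the high dose.

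Of 19 S-phase replication genes, 0 rose and 14 fell with the combination, where 3.47% of all genes rose and 2.83% fell, and their median log2 fold change was -0.46. With the high dose, where 12.5% of all genes rose and 12.7% fell, 1 rose and 11 fell, with a median of -0.28. The helicase genes MCM5 and MCM6, the flap nuclease gene FEN1 and the licensing gene CDC6 fell with the combination at -0.67, -0.62, -0.70 and -0.63. With the high dose MCM5 was at -0.92, MCM6 at -0.51 and CDC6 at -0.57, and RRM2, a ribonucleotide reductase subunit, at -0.72. The gene that rose there was CDT1, at 0.67.

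Among 14 histone chaperones, 0 rose and 5 fell with the combination, where 2.83% of all genes fell, and 1 rose and 6 fell with the high dose, where 12.7% fell, with medians of -0.31 and -0.33. NASP, CHAF1A, SSRP1 and SUPT16H fell with the combination at -0.33, -0.34, -0.27 and -0.30. ASF1B was at -0.96 with the high dose, RBBP7 at -0.66 and SUPT16H at -0.35, while ATRX rose at 0.54. Of the 11 genes listed here as replication-independent histones, H2AX among them, 10 were tested, and their 3′ ends were not classed. With the combination H2AX alone rose, at 0.72 with an adjusted p of 0.0016, and none fell. In high-dose cells 0 rose and 7 fell, where 12.7% of all genes fell, among them H2AZ1 at -0.72, H1-10 at -0.56, H3-3B at -0.52 and MACROH2A1 at -0.47. The medians of these genes were 0.10 with the combination and -0.45 with the high dose. No gene of these 4 lists was called with prexasertib or the low dose alone, and the lists were chosen with results of these data known.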

How the data were processed

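IMR-32 cells were profiled in 20 libraries with a QuantSeq 3′ mRNA kit with molecular barcodes, sequenced as single-end reads, per the labels' protocols. The authors deposited raw counts per gene, which were whole numbers with a different total in each library. The submitters' processing notes name FastQC 0.11.7, STAR 2.7.2b, edgeR 3.36.0, limma 3.50.3 and GRCh38. The annotation release, counter, strand setting and barcode collapsing are not given in the labels or notes, so reads of near-identical or overlapping histone genes may be split between copies. The members, gene lists and tests were chosen with earlier results of these data known.

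Genes were kept with filterByExpr of edgeR 4.0.16 in R 4.3.3 (minimum count 10, minimum total 15, in effect 1.88 CPM in 4 libraries). All 20 libraries entered a single model of the 5 groups (TMM factors 0.968 to 1.03, robust quasi-likelihood, 15 residual degrees of freedom, biological coefficient of variation 12.5%), with two-sided p-values adjusted by Benjamini-Hochberg over 13729 genes in each of 8 comparisons and a threshold of 0.05. Values with ± beside log2 fold changes are standard errors. CPM values are TMM-scaled, apart from the filter threshold and the limit for a count of 0. The script was also tested on simulated data. Within groups, libraries correlated across genes at a Pearson's r of 0.97 to 0.981 and differed by a chi-square per degree of freedom of 3.05 to 8.76, so none was a copy of another. Of the 69 matching rows, 65 were matched to GENCODE 29 by gene ID and 4 by older symbol; promoters came from RefSeq (GRCh38.p14). Shared stretches are windows of 50 bases of annotated transcripts.

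Libraries with the same replicate number were taken as paired where every correlation of their deviations exceeded 0.1, a pairing seen in the data and not stated by the labels. This held for the low dose (0.144 to 0.237) and prexasertib (0.157 to 0.213) against DMSO, for the combination against prexasertib (0.115 to 0.23) and the low dose (0.144 to 0.294), and also for the high dose relative to the low (0.11 to 0.298). It did not for the high dose (lowest 0.0271) or the combination (0.0274) against DMSO. Even so, 2 of 4 DMSO libraries correlated best with the high-dose library of their own number, and 3 of 4 with that of the combination. The rule therefore does not exclude a pairing there. Alternatives were other scalings, filters and tools (DESeq2 1.42.0, limma-voom of limma 3.58.1), fewer groups in the fit, the replicate block and leaving out each library. Named with values per library are the 10 most counted members and the 4 with the smallest p in each comparison with DMSO, plus members shown for their role in a pair or subfamily, chosen after their values were seen; in the other lists, the 4 with the smallest p in the combination and in the high dose, with SLBP, NPAT, CASP8AP2 and LSM11, and with CDT1 added after seeing the data. The result of 1 neuroblast marker, and the sum that holds it, is not reported here.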

Additional observations from a re-analysis of the deposited data

Results flagged for a closer look

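H1-5, a linker histone gene, had 32.2 CPM in combination replicate 1, far from the other 3 combination libraries, with a gap of 0.929 of the group's range. H2BC8 had 4.19 CPM in DMSO replicate 1, below the other 3 DMSO libraries by 0.836 of the range. These were 2 of 85 groups of 4 libraries checked, and chance alone sets apart about 1 group in 20.

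For 4 genes the change with prexasertib differed between cells with and without Dyngo-4a, tested as the interaction on the log2 scale. The difference was 1.84 for H2BC8, 2.90 for H4C5, 1.97 for H2BC21 and 1.04 for H2BC5, with an edgeR adjusted p under the threshold in each case. The test takes the low dose as the Dyngo-4a dose in the combination, which the labels do not state.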

How the results depend on the processing

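Among the genes followed here, none changed direction under the alternatives in a comparison where any setting called it. Values that no setting called were not followed for direction. Of the genes called in the report, some kept the call under every alternative that gave them a value. Against DMSO these were 19 of 24 for the combination and 10 of 16 for the high dose. For the combination they were 10 of 15 against prexasertib and 20 of 31 against the low dose. They were 4 of 7 for the high against the low dose, and 2 of 4 for the interaction. For the high dose against DMSO, H2BC11, H4C4 and H3C13 had a value in 15 of 16 alternatives. So did H2BC11 for the high against the low dose.

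With the replicate number as a block, called histone genes numbered 29 for the combination and 18 for the high dose against DMSO, where the numbers did not pair the libraries, 25 for the combination against prexasertib, 32 against the low dose, 12 for the high against the low dose, 10 for the interaction, 1 for prexasertib and 1 for the low dose. Without a low-count filter the low dose gave 1 (H1-5) and the interaction 7. DESeq2 gave 8 for the interaction, and limma-voom 23 for the combination against prexasertib. With only the compared groups in the fit, 26 histone genes were tested for the high dose against DMSO and 10 called, and 29 were tested for the high against the low dose and 4 called; fewer libraries and fewer genes entered these fits. The cause of the other changes was not tested.

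Leaving out 1 library at a time gave 20 to 25 called genes for the combination and 11 to 14 for the high dose against DMSO, 0 to 0 for prexasertib and for the low dose, 11 to 17 for the combination relative to prexasertib and 25 to 29 relative to the low dose, 5 to 7 for the high against the low dose, and 2 to 5 for the interaction, with 2 when combination replicate 1 was left out. Whether depth accounts for lost calls was not tested.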

Other observations

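The share of histone counts held by H4C3 was highest in replicate 4 in 5 of 5 groups, and replicate 4 had the highest H4C3 level in 4 of 5 groups and the lowest summed H1 level in 4 of 5. This was noticed in the data and not tested. The labels give all libraries the same batch and do not say what a replicate number shares.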
